A study of Mus musculus with 8 samples.

Results

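Macrophage and myeloid genes were followed in brown adipose tissue (BAT), the heat-producing fat depot, of mice after thoracic aortic constriction (TAC) or a sham operation (Sham). The set was defined as 36 gene symbols, of which 35 had at least 1 probe carrying a RefSeq accession of that symbol, with 46 probes among 55681 that were not controls and 35 genes among 21154 with a symbol on the array. The remaining symbol, Clec7a, had no such probe and is not analysed here. The symbols were chosen with earlier values of these arrays known, those of the first TAC array above all. What that array showed is therefore given as a description with no test, and the test of TAC against Sham that follows leaves it out.

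RNA came from male C57BL/6NCrSlc mice that were operated on at 11 weeks of age, kept at 23 °C on normal chow and sampled at 13 weeks of age. The labels name no transgene or drug for any of the 8 samples, which differed in surgery: 4 were Sham (Sham-1 to Sham-4) and 4 were TAC (TAC-1 to TAC-4). The labels put the collection 2 weeks after surgery in one field and 4 weeks in another, and the ages given fit 2 weeks. They do not say whether each sample came from 1 animal, so the errors below measure the spread between these samples.

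Each sample was hybridised to 1 one-colour array. Scanner output was at hand for 7 of the 8, and Sham-1 was read from the deposited table, whose values of the other arrays lay on the same scale. A level below is the log2 intensity of a probe minus the 75th percentile of its array, so that 0 is the level of a bright probe and a difference of 1 is a 2-fold change. A gene with more than 1 probe is given by its brightest one, judged by the mean over the scanned arrays. All 7 scanned arrays lay on 1 slide, the Sham arrays in row 1 and the TAC arrays in row 2, so place on the slide and surgery cannot be told apart. TAC-1 was the only scanned array at position 1 of its row, so that position and what set TAC-1 apart cannot be told apart either. Between 54.5% and 64.3% of spots were well above background, with TAC-1 at 59.7%. Ucp1, the uncoupling protein that defines brown fat, was well above background on all 7 scanned arrays at levels of 8.55 to 9.88, the lowest on TAC-1.

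Macrophages in fat clear dying cells and debris, and they sense lipid through surface receptors. Resident macrophages carry scavenger receptors such as the mannose receptor Mrc1 and the haemoglobin receptor Cd163. Lipid-associated macrophages, which gather around dying fat cells in overloaded adipose tissue, carry the lipid receptor Trem2 together with Gpnmb, Lgals3, Cd9 and Itgax. Monocytes entering from blood bring integrins, Fc receptors and the oxidase Cybb, and the transcription factor PU.1, encoded by Spi1, directs much of the myeloid programme. In whole tissue, fewer cells of a type and less RNA per cell cannot be told apart.

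TAC-1 stood apart from the other 7 arrays and is described first. A gene was kept for these counts where its probe cleared the background on 3 or more of the scanned arrays. Of the 32 kept, 30 had their highest level of all 8 arrays on TAC-1, against 17.2% of the 33378 probes that passed the same filter. Of the 32, 25 were at least 2-fold above the mean of TAC-2 to TAC-4, against 3.68% of probes, and 21 were at least 2-fold above the highest of all other arrays, against 1.27%. The median difference between TAC-1 and the mean of TAC-2 to TAC-4 was 1.99 on the log2 scale over these genes and -0.08 over all probes. Among these genes the largest differences were those of Ms4a7, Itgax, Trem2 and Ctss. At the other end stood the resident marker Cd163, which had its lowest level on TAC-1 (1 of the 32 genes, against 32.9% of probes) and was the 1 gene at least 2-fold below TAC-2 to TAC-4 (against 3.24%). The next smallest were those of Cd14, Cd9, Itgam and Mrc1. Cd53 and Msr1 passed the filter only with the help of TAC-1, so they had to be high on that array. Spi1, Atp6v0d2 and Mmp12 did not pass it.

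**Figure D1:**
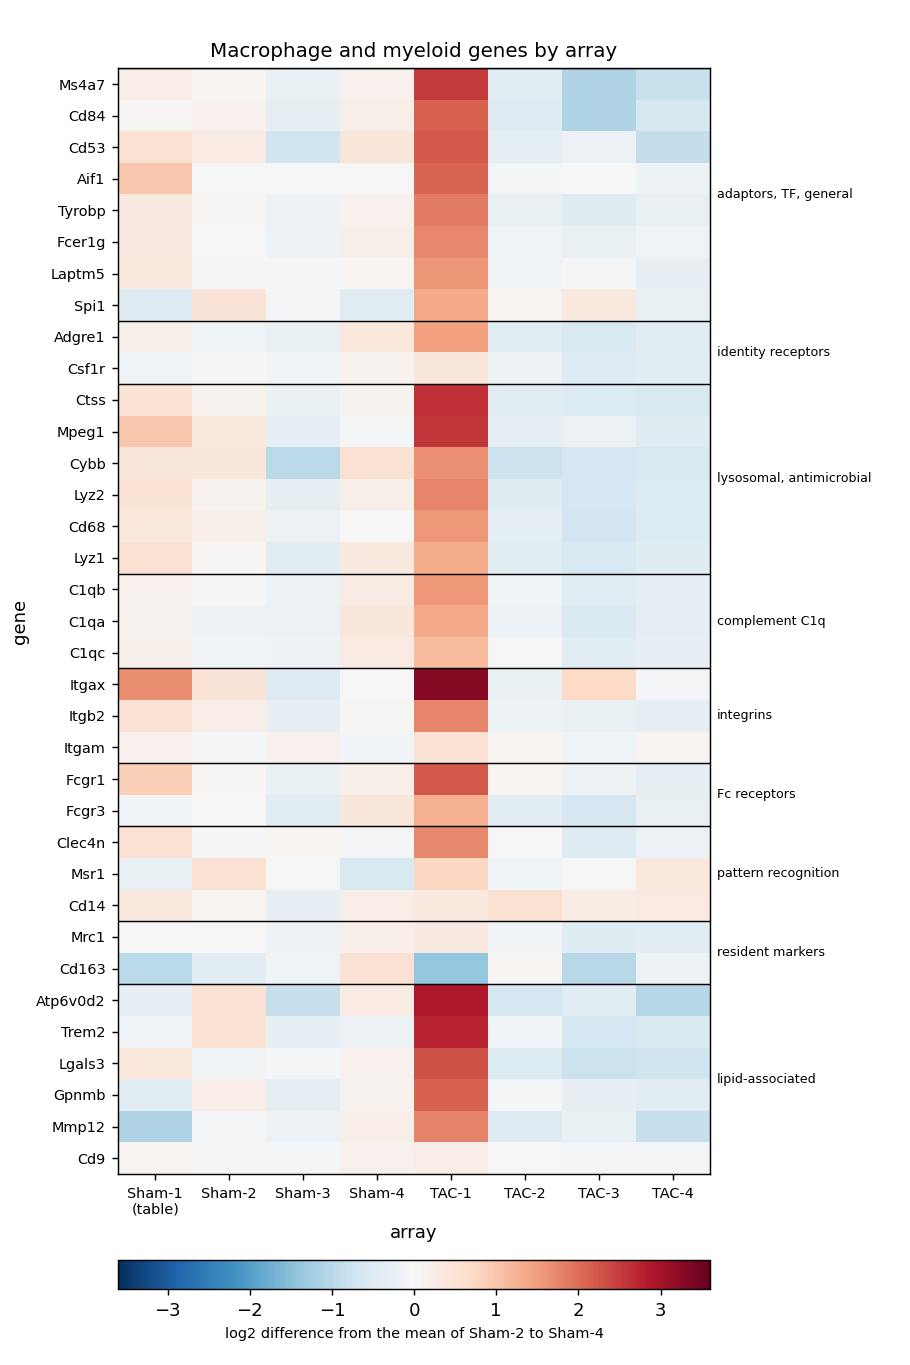
Levels of the 35 measured genes (rows, grouped by role) on the 8 arrays (columns), as the log2 difference from the mean of Sham-2 to Sham-4 (red above, blue below). TAC-1 is red in nearly all rows, Cd163 is blue there, and TAC-2 to TAC-4 are pale blue in most rows.

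Promoter sequences were at hand for 26 of the 36 genes (RefSeq, GRCm38.p6, 250 bases before to 50 after the start site). They were searched on both strands for the core of the PU.1 motif (GAGGAAG), an AP-1 site (TGANTCA) and the box bound by MITF and TFE factors (TCANGTG), none of which contains another. The PU.1 core was found in 10 of the 26 genes, or 38.5%, and in 15.4% of the 27025 genes of the table. The AP-1 site was found in 8 genes, or 30.8%, and in 8.97% of all genes. The MITF/TFE box was found in 9 genes, or 34.6%, and in 16.1% of all genes. Of the 26 genes, 5 held none of the motifs and 5 held more than 1. Among all 32851 promoters of this length, 13.6% held the PU.1 core, 7.81% the AP-1 site and 14.3% the MITF/TFE box. The genes with the PU.1 core were C1qc, Cd53, Ctss, Fcgr1, Fcgr3, Itgam, Laptm5, Mmp12, Mrc1 and Trem2, so both ends of the order on TAC-1 were represented. These are matches of letters and not measured binding. The promoters of the 3 tested genes with the core and the largest difference on TAC-1, and that of Mrc1, which also held it but differed little, are printed 5′ to 3′ with the match in capitals. Cd53, 1 of the 3, passed the filter only with the help of TAC-1, so its place among these promoters is not firm. All matches in them lay on the opposite strand and so read CTTCCTC.
Trem2 (chr17:48346151-48346450, plus strand): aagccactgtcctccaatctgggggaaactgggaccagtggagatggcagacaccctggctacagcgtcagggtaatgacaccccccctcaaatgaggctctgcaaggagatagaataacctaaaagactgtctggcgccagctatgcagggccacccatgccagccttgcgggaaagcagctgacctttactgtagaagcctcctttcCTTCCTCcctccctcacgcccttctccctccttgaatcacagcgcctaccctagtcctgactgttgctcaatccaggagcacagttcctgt
Ctss (chr3:95526536-95526835, plus strand): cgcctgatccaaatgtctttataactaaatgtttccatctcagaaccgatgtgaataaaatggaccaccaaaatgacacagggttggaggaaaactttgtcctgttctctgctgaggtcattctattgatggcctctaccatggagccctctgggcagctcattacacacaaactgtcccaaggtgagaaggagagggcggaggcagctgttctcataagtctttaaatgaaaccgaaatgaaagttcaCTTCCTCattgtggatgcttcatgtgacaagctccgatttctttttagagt
Cd53 (chr3:106790100-106790399, minus strand): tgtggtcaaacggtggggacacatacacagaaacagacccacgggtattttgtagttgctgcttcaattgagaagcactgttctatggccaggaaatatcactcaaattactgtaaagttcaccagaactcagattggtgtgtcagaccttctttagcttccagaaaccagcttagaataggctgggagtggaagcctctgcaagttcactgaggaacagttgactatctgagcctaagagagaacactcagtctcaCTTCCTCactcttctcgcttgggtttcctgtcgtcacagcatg
Mrc1 (chr2:14229164-14229463, plus strand): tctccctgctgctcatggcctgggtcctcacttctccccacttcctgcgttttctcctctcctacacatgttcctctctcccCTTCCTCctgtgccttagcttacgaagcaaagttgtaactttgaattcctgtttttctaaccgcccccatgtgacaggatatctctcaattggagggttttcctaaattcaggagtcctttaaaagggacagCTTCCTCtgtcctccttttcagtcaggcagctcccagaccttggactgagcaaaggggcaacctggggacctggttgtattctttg
The match began 41 bases before the start site in Trem2, 1 base before it in Ctss and 7 bases after it in Cd53, and Mrc1 held matches 168 and 36 bases before it.

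The receptors that identify macrophages differed by unequal amounts on TAC-1. Adgre1, the F4/80 antigen of mouse macrophages, had levels of -0.34, -0.68, -0.76 and -0.15 on Sham-1 to Sham-4, of 0.94 on TAC-1, and of -0.94, -1.09 and -0.93 on TAC-2 to TAC-4. TAC-1 was the highest by 1.09 on the log2 scale, and the remaining TAC arrays lay below every Sham array. Csf1r, the receptor for macrophage colony-stimulating factor, had levels of 3.75, 3.84, 3.78 and 4.02 in Sham, 4.29 on TAC-1, and 3.70, 3.41 and 3.50 on the other TAC arrays. Again TAC-1 was highest and TAC-2 to TAC-4 lay below every Sham array, but TAC-1 exceeded their mean by only 0.76. The 2 dimmer Csf1r probes, at mean levels of 0.27 and -1.32 against 3.79, gave 0.26 and 1.07 for that difference. The Adgre1 probes gave 1.93 and 1.94.

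Among the adaptors and general myeloid genes, Tyrobp, which carries the signal of Trem2 and other activating receptors, had levels of 1.96, 1.69, 1.47 and 1.80 in Sham, 3.48 on TAC-1, and 1.40, 1.23 and 1.39 on TAC-2 to TAC-4. TAC-1 was 4.43-fold above the mean of the other TAC arrays, and those lay below all Sham arrays. Aif1, the calcium-binding protein Iba1, had levels of 1.21, 0.23, 0.24 and 0.23 in Sham, 2.34 on TAC-1, and 0.16, 0.25 and 0.05 on the other TAC arrays. Here 6 arrays lay within a narrow band, and TAC-1 and Sham-1 both stood above it. Ms4a7, a membrane protein of macrophages, had levels of -0.02, -0.19, -0.50 and -0.10 in Sham, 2.26 on TAC-1, and -0.67, -1.34 and -1.08 on TAC-2 to TAC-4. TAC-1 was 9.77-fold above the other TAC arrays, and the groups did not overlap once it was set aside. The Fc receptor adaptor Fcer1g, the lysosomal protein Laptm5 and the immune-cell receptor Cd84 differed on TAC-1 by 1.91, 1.75 and 2.81. The tetraspanin Cd53 was not well above background on TAC-2 to TAC-4 and was at least 5.56-fold higher on TAC-1, where the lowest signal well above background on each dim array takes the place of a dimmer value. A second Cd84 probe gave 0.43, so the size of its difference depended on the probe. Spi1 had levels of -6.97, -6.05, -6.59 and -6.89 in Sham, -5.15 on TAC-1, and -6.41, -6.17 and -6.77 on the other TAC arrays. It was not well above background on any scanned array, so its order of arrays carries no weight.

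The lysosomal and antimicrobial genes were all highest on TAC-1. Cd68, a glycoprotein of macrophage lysosomes, had levels of 1.52, 1.37, 0.95 and 1.15 in Sham, 2.72 on TAC-1, and 0.82, 0.46 and 0.67 on TAC-2 to TAC-4. Ctss, a cathepsin that trims the invariant chain of antigen-presenting molecules, had levels of 1.90, 1.52, 1.16 and 1.52 in Sham, 4.02 on TAC-1, and 1.02, 0.92 and 0.84 on the other TAC arrays. For both genes Sham-1 came next after TAC-1, and TAC-2 to TAC-4 were the lowest of all 8. Lyz1, a lysozyme, had levels of 3.07, 2.58, 2.14 and 2.89 in Sham, 3.87 on TAC-1, and 2.16, 1.99 and 2.11 on the other TAC arrays. Lyz2, the lysozyme of macrophages and other myeloid cells, had levels of 0.52, 0.17, -0.32 and 0.25 in Sham, 1.79 on TAC-1, and -0.41, -0.61 and -0.47 on the other TAC arrays. The lysozymes are close paralogues, and whether their probes cross-hybridised was not tested. The pore-forming protein Mpeg1 and the oxidase subunit Cybb differed on TAC-1 by 2.87 and 2.30, and Cybb was well above background on only 4 of the 7 scanned arrays.

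The complement C1q chains, which tag debris for uptake and are made largely by macrophages, had smaller differences on TAC-1. C1qa had levels of 1.38, 1.06, 1.02 and 1.64 in Sham, 2.61 on TAC-1, and 1.04, 0.73 and 0.92 on TAC-2 to TAC-4. For C1qb the levels were 1.20, 0.98, 0.83 and 1.30 in Sham, 2.59 on TAC-1, and 0.87, 0.64 and 0.70 on the other TAC arrays. For C1qc they were 2.06, 1.76, 1.70 and 2.18 in Sham, 3.02 on TAC-1, and 1.87, 1.51 and 1.58 on the other TAC arrays. In all 3 chains TAC-1 was highest, Sham-4 was next, TAC-3 was lowest, and the other Sham and TAC arrays overlapped. TAC-1 was 3.29-, 3.61- and 2.58-fold above the mean of the other TAC arrays.

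The integrins did not differ alike. Itgax, the CD11c chain of dendritic cells and lipid-associated macrophages, had levels of -1.41, -2.64, -3.56 and -3.08 in Sham, 0.22 on TAC-1, and -3.32, -2.38 and -3.13 on TAC-2 to TAC-4. TAC-1 was 8.95-fold above the other TAC arrays, and Sham-1 was second, above the mean of the other Sham arrays by 1.68. Itgam, the CD11b chain of monocytes, macrophages and neutrophils, had levels of 4.76, 4.54, 4.76 and 4.49 in Sham, 5.13 on TAC-1, and 4.68, 4.47 and 4.70 on the other TAC arrays. TAC-1 exceeded TAC-2 to TAC-4 by 0.51. The mean level of that probe was 4.68, and the remaining Itgam probes, at -1.34 and -2.47, gave 0.29 and 0.05. Whether the probes report Itgam equally was not tested. Itgb2, the beta chain with which both pair, differed by 2.01, a size between those of its partners. The Fc receptors Fcgr1 and Fcgr3 differed by 2.37 and 1.70.

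The pattern recognition receptors did not differ alike either. Cd14, the co-receptor for lipopolysaccharide, had levels of 1.30, 1.01, 0.66 and 1.19 in Sham, 1.31 on TAC-1, and 1.50, 1.23 and 1.26 on TAC-2 to TAC-4. TAC-2 and not TAC-1 was the highest, and TAC-1 lay within the range of the other TAC arrays. Clec4n, the lectin Dectin-2, differed on TAC-1 by 1.96. Msr1, a scavenger receptor, differed by 0.66 and was well above background on 3 scanned arrays. A slightly dimmer Msr1 probe, at a mean level of -4.23 against -4.05, was well above background on 6 and gave 1.20. The size of the Msr1 difference and its passing of the filter thus depended on the probe.

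Of the resident markers, Cd163 differed in the opposite direction to the set on TAC-1, and Mrc1 was among the genes with a small positive difference. Mrc1 had levels of 0.74, 0.75, 0.56 and 0.92 in Sham, 1.06 on TAC-1, and 0.63, 0.30 and 0.32 on TAC-2 to TAC-4. TAC-1 was highest, but only by 0.14 over Sham-4. Cd163 had levels of -3.99, -3.40, -3.17 and -2.50 in Sham, -4.40 on TAC-1, and -2.96, -4.02 and -3.20 on the other TAC arrays. TAC-1 was the lowest, 2.02-fold below the mean of TAC-2 to TAC-4. The probe was well above background on every scanned array but TAC-3. Both groups spread widely, and TAC-3 and Sham-1 came next above TAC-1.

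Among the lipid-associated markers, Trem2 had levels of -1.31, -0.65, -1.48 and -1.39 in Sham, 1.56 on TAC-1, and -1.28, -1.80 and -1.69 on TAC-2 to TAC-4. TAC-1 was 8.88-fold above the other TAC arrays, while Sham and TAC overlapped without it. Gpnmb, a lysosomal glycoprotein, had levels of -1.92, -1.29, -1.89 and -1.40 in Sham, 0.61 on TAC-1, and -1.61, -1.84 and -1.90 on the other TAC arrays. Lgals3, the lectin galectin-3, had levels of 2.02, 1.54, 1.58 and 1.78 in Sham, 3.91 on TAC-1, and 1.13, 0.86 and 0.92 on the other TAC arrays. For Gpnmb the arrays other than TAC-1 overlapped, and for Lgals3 they did not, TAC-2 to TAC-4 lying below all of Sham. Cd9, a tetraspanin that many cell types carry, had levels of 1.38, 1.24, 1.26 and 1.47 in Sham, 1.57 on TAC-1, and 1.30, 1.24 and 1.25 on the other TAC arrays. Its whole range over 8 arrays was narrow, with TAC-1 above the other TAC arrays by 0.31. Atp6v0d2, a subunit of the proton pump of macrophages and osteoclasts, had levels of -5.88, -5.07, -6.42 and -5.29 in Sham, -2.68 on TAC-1, and -6.23, -6.01 and -6.61 on the other TAC arrays. Mmp12, the macrophage elastase, had levels of -6.97, -5.94, -6.08 and -5.64 in Sham, -4.10 on TAC-1, and -6.35, -6.11 and -6.71 on the other TAC arrays. Both were well above background on TAC-1 alone, and on that array they were at least 3.26-fold and 1.22-fold above the mean of the other TAC arrays, a bound set as for Cd53. A second Mmp12 probe was above background nowhere and gave -0.32.

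**Figure D2:**
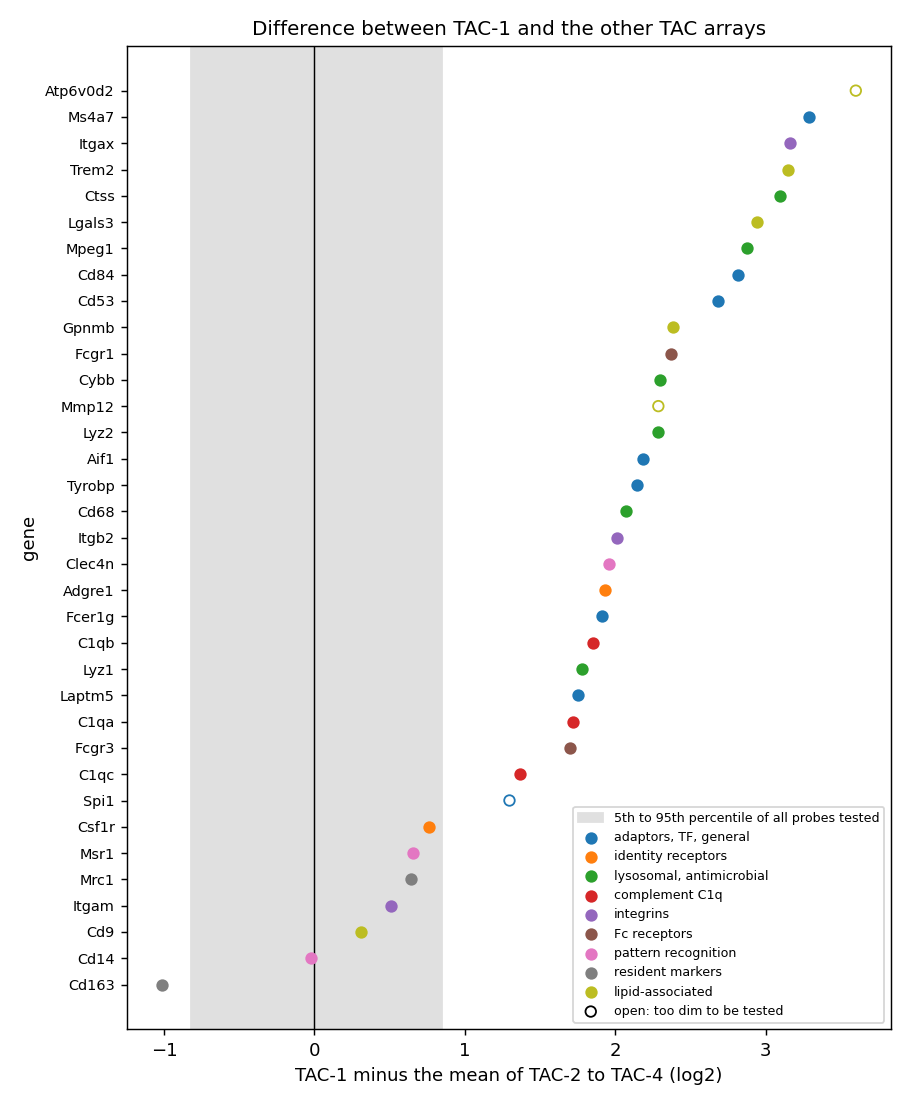
Difference between TAC-1 and the mean of TAC-2 to TAC-4 (log2, horizontal axis) for each of the 35 genes (vertical axis, ordered by size, coloured by role), with the 5th to 95th percentile of all probes tested in grey. The grey band ends at 0.85, and 6 genes lie inside it while Cd163 lies to its left at -1.01; the points of Atp6v0d2, Mmp12, Cd53 and Spi1 are set against levels not above background and have no firm rank.

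Sets of resident, lipid-associated and recruited markers were averaged on each array relative to Sham-2 to Sham-4. On TAC-1 the lipid-associated set (Trem2, Gpnmb, Cd9, Lgals3 and Itgax) stood at 2.14, the recruited set (Itgam, Itgb2, Cd14, Clec4n, Cybb and Fcgr1) at 1.37 and the resident set (Mrc1 and Cd163) at -0.53. The lipid-associated set thus exceeded the resident set by 2.67, and the recruited set exceeded it by 1.90. On the other 6 scanned arrays the same differences ran from -0.31 to 0.50 and from -0.20 to 0.49. Sham-1 had the next largest, 0.80 and 0.96, with its resident set at -0.49. The low resident level on TAC-1 came from Cd163 alone, which stood at -1.38 while Mrc1 stood at 0.32. On Sham-1 they stood at -0.97 and -0.01. With Mrc1 alone as the resident set, the differences on TAC-1 were 1.83 and 1.06.

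**Figure D3:**
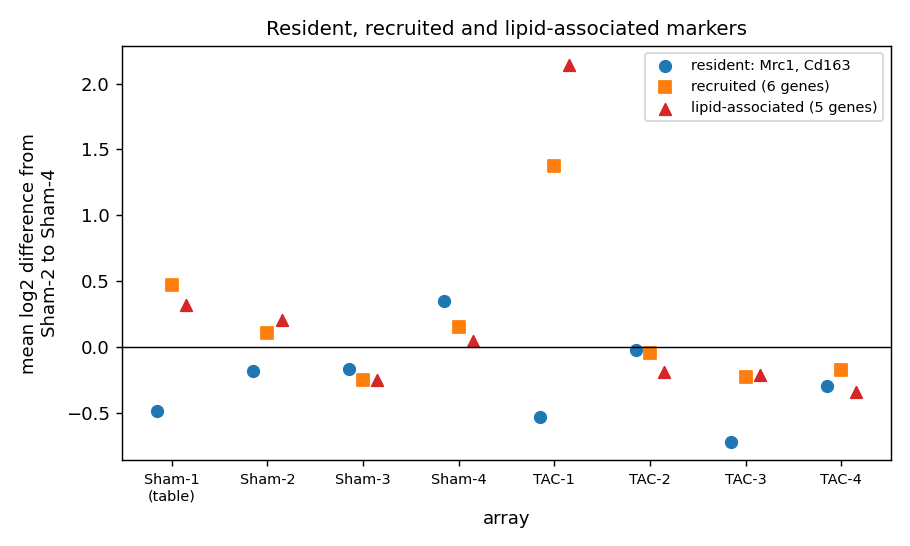
Mean log2 difference from Sham-2 to Sham-4 (vertical axis) of the resident, recruited and lipid-associated marker sets on each of the 8 arrays (horizontal axis). The sets lie far apart on TAC-1, at -0.53, 1.37 and 2.14, and apart to a lesser degree on Sham-1.

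Other macrophage genes from a list of 35 gave a similar picture on TAC-1. The genes named from this and the other lists were picked after their values were seen. Of the 31 that could be tested, 23 were highest of the 7 scanned arrays on TAC-1, against 18.3% of probes, and 19 were at least 2-fold above TAC-2 to TAC-4. The immunoglobulin receptor Fcgr4 and the fractalkine receptor Cx3cr1 differed by 2.45 and 2.36. Siglec1, a sialic acid receptor of tissue-resident macrophages, differed by 1.47, but several genes known from resident macrophages were not among those at 2-fold. Lyve1, the hyaluronan receptor, differed by -0.99, and the folate receptor Folr2 by 0.28. The resistin-like gene Retnla differed by -1.10 and the phagocytic receptor Mertk by -0.01, although adipocytes and vessels can express some of these genes. A list of 21 lysosome and lipid-handling genes, many of which other cells of the tissue also express, stayed near the Sham level: its mean was -0.03 on TAC-1 and from -0.14 to 0.05 on the other scanned arrays, and 1 of the 20 tested, the cholesterol exporter Abcg1, was at least 2-fold higher, at 1.09.

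The macrophage genes did not stand alone on TAC-1. Relative to the Sham arrays, 10 general leukocyte genes had a mean of 1.53, against -0.23 to 0.13 on the other scanned arrays, and 9 of them were highest on TAC-1. Dendritic cell genes stood at 1.41 and T and NK cell genes at 0.99, with the chemokine receptor Ccr7 different by 2.69 and the T cell receptor chain Cd3d by 1.99. At least 2-fold above TAC-2 to TAC-4 were 5 of 7 dendritic cell genes and 6 of 10 T and NK cell genes. Others did not follow: Siglech and Zbtb46 differed by -0.09 and -0.37, and Cd3e and Cd4 by 0.07 and -0.06. Monocyte genes had a mean of 0.69 that rested on few genes: Ccr2 and Plac8 differed from TAC-2 to TAC-4 by 2.10 and 1.66, while the median difference was -0.06 and Ms4a4c, Chil3, Nr4a1 and F13a1 were lower, by -0.81 to -0.22. Neutrophil genes had a mean of 0.78 that rested on 2 of 6 genes: the calprotectin chains S100a8, well above background on 4 arrays, and S100a9 differed by 3.15 and 3.27, while Csf3r, Elane, Cxcr2 and Camp differed by -0.04 to 0.40. Several probes that did not follow were bright on TAC-1: Siglech at 8.22, Csf3r at 7.84, Ms4a4c at 7.40 and Cd4 at 2.78, against -1.03 for Cd3d. Whether these bright probes report the cell types they are listed for was not tested. Proliferation genes stood at 1.05. Skeletal muscle genes were at 1.61 on TAC-1, but ranged from -0.85 to 1.42 on the other scanned arrays. Brown adipocyte genes had a mean of -1.37 on TAC-1, against -0.65 to 0.20 elsewhere: the fatty acid elongase Elovl3 differed by -4.06 and the deiodinase Dio2 by -1.98, whereas Cidea differed by -0.38. The mean leaned on Elovl3 and Dio2. The median difference of the brown adipocyte list from TAC-2 to TAC-4 was -0.56, and 4 of 10 genes were at least 2-fold lower. Fibroblast and preadipocyte genes stood at 0.52, against -0.29 to 0.16 on the other scanned arrays, and 6 of 8 were highest on TAC-1. Endothelial genes, at 0.05, and general adipocyte genes, at -0.10, stayed near the Sham level. The adipocyte mean included Lep, which differed from TAC-2 to TAC-4 by 1.44, while the median difference of that list was -0.20. The part of these other cell types in the values of the macrophage genes was not tested.

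**Figure D4:**
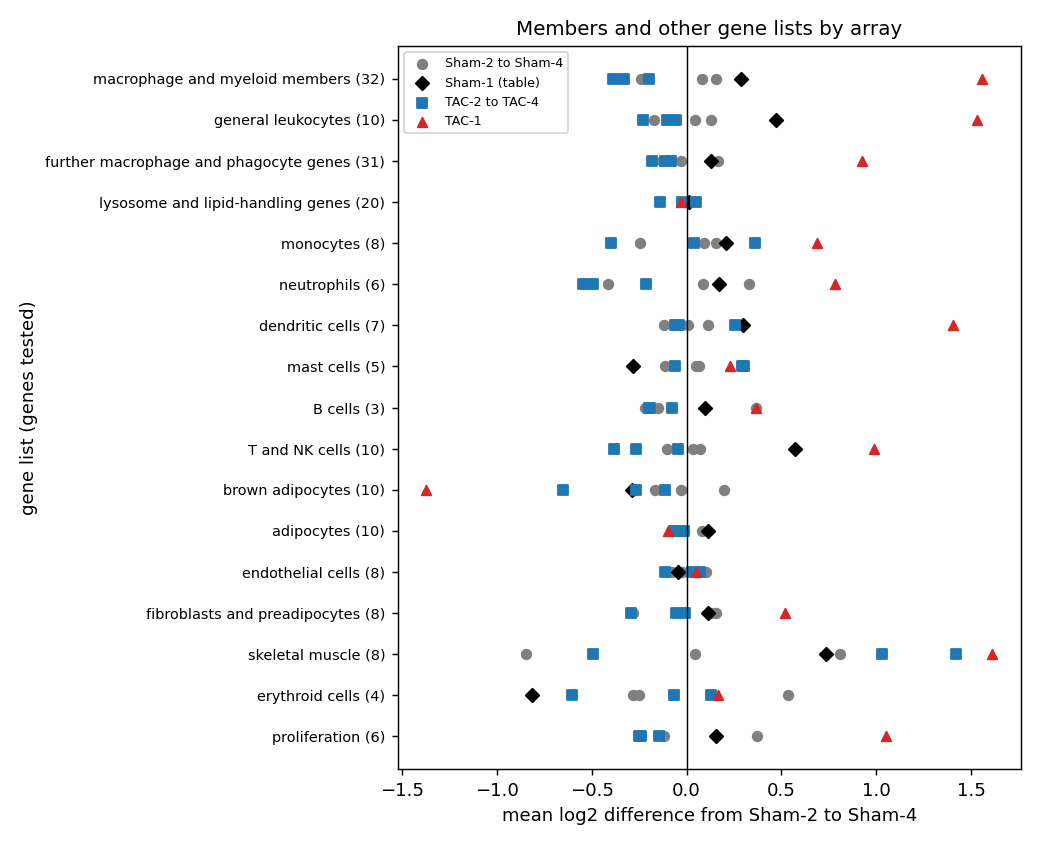
Mean log2 difference from Sham-2 to Sham-4 (horizontal axis) of the macrophage and myeloid genes and of 16 other gene lists (vertical axis, number of genes tested in parentheses), with 1 symbol per array. On TAC-1 (red triangles) the macrophage and myeloid genes stand at 1.56 and general leukocyte genes at 1.53, and brown adipocyte genes stand at -1.37.

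Sham-1 lay on the same side as TAC-1, at a smaller distance. Over the 32 genes its median difference from Sham-2 to Sham-4 was 0.31, against -0.05 over all probes, and for 16 of them it was above every array but TAC-1, against 13.2% of probes. The largest differences were those of Itgax, Aif1, Mpeg1 and Fcgr1, at 1.68, 0.97, 0.95 and 0.87 on the log2 scale, while Trem2 and Gpnmb were lower on Sham-1, by -0.14 and -0.40. Cd163 was lower by -0.97. Across the 32 genes the difference of Sham-1 from the other Sham arrays and that of TAC-1 from the other TAC arrays, which share no array, had a Pearson r of 0.56 and a Spearman rho of 0.47. Across all probes tested these were 0.27 and 0.25. Genes on 1 array are not independent replicates, and the points share their libraries. Sham-3 lay above the mean of Sham-2 to Sham-4 for only 3 of the 32 genes.

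TAC was then compared with Sham without TAC-1, in 3 arrays against 3. The genes were chosen with TAC-1 above all in view, but values of the other arrays were known too. TAC-1 was the highest array for most of these genes, so leaving it out lowers the TAC mean. The counts of lower genes are therefore a description, and the signs with TAC-1 included are given further below. Most of the macrophage genes were lower in TAC-2 to TAC-4 than in Sham. The amounts were far smaller than those on TAC-1, and none passed the test across all probes. Of the 30 genes tested, 27 had a lower mean in TAC-2 to TAC-4, against 56.8% of 32814 probes, and the median difference was -0.32 on the log2 scale, against -0.03 over all probes. No probe was called at an adjusted p under 0.05 (limma with Benjamini-Hochberg adjustment, smallest adjusted p 0.11), against 1290 higher and 3215 lower probes at an unadjusted p under 0.05. At that unadjusted level 9 of the 30 genes were lower, or 30% against 9.8% of all probes, and none was higher, against 3.93%. In 10 of the 30 all 3 TAC arrays lay below all 3 Sham arrays, against 14.5% of probes, and the count was also 10, against 8.25%, when Sham-1 was added.

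Ms4a7 had the largest of these differences, -0.76 (SE 0.197, limma adjusted p 0.214), which put TAC at 58.9% of the Sham level. Cd84 followed with -0.70 (SE 0.224, limma adjusted p 0.282), although its dimmer probe gave -0.26 and another background correction (normexp) brought it to -0.16. Lgals3 had the smallest p, at -0.66 (SE 0.111, limma unadjusted p 9e-04, adjusted p 0.151), or 63.2% of Sham. Its TAC levels of 0.86 to 1.13 lay wholly below its Sham levels of 1.54 to 1.78. The lysosomal genes Lyz2, Cd68 and Ctss differed by -0.53 (SE 0.165), -0.51 (SE 0.145) and -0.48 (SE 0.124), with limma adjusted p-values of 0.279, 0.246 and 0.215. For all 3 genes the groups did not overlap. Adgre1 differed by -0.46 (SE 0.173, limma adjusted p 0.34), with -0.25 from its dimmer probe, Csf1r by -0.35 (SE 0.112, limma adjusted p 0.286) and Tyrobp by -0.32 (SE 0.111, limma adjusted p 0.313). One dimmer Csf1r probe gave 0.05 and the other -0.36, so the differences of Adgre1 and Csf1r depended on the probe.

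The resident and lipid-associated markers did not part in this comparison as they did on TAC-1. Mrc1 differed by -0.33 (SE 0.139, limma adjusted p 0.379) and Cd163 by -0.37 (SE 0.345, limma adjusted p 0.668), or -0.16 under normexp and -0.12 with Sham-1 added, while the 4 lipid-associated markers tested ran from -0.66 to -0.06 with Cd9 at the upper end and Trem2 at -0.41. Itgax, counted with them in the marker set above, was at 0.15 (SE 0.322, limma adjusted p 0.867). The C1q chains ran from -0.34 to -0.23 and none had an unadjusted p under 0.05. Only Itgam, Itgax and Cd14, 3 of 30, had higher means after TAC, against 43.2% of probes. Cd14 was higher by 0.38 (SE 0.157, limma unadjusted p 0.0531, adjusted p 0.371), and it was the 1 gene of 30 whose TAC arrays all lay above the scanned Sham arrays, against 7.25% of probes, though TAC-3 and TAC-4 lay below Sham-1. Of the 31 further macrophage genes 23 were lower, 5 of them at an unadjusted p under 0.05, and the general leukocyte list had 8 of 10 lower and 2 at that level. Mean levels of the muscle list ran from -0.50 to 1.42 in TAC-2 to TAC-4 and from -0.85 to 0.81 in Sham, and those of the brown adipocyte list from -0.65 to -0.11 and from -0.17 to 0.20. Their part in the lower macrophage levels was not tested.

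**Figure D5:**
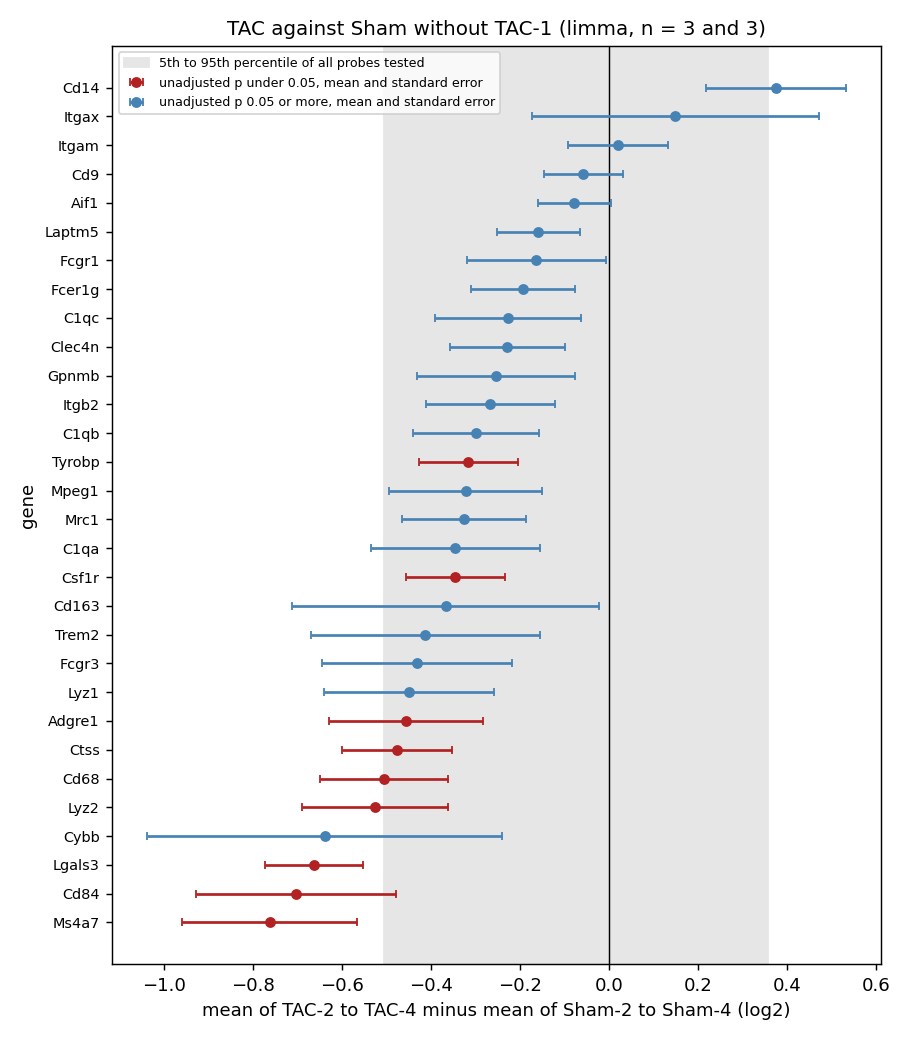
Difference between the means of TAC-2 to TAC-4 and Sham-2 to Sham-4 (log2, horizontal axis; bars are standard errors from limma) for the 30 genes tested (vertical axis), with the 5th to 95th percentile of all probes tested in grey. Genes with an unadjusted p under 0.05 are red; all 9 lie below 0, from -0.76 to -0.32, and none passed adjustment.

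With TAC-1 included, the sign of the group difference turned for most genes. In the 7 scanned arrays 26 of 32 genes had a higher mean after TAC, against 41.5% of probes, and 6 a lower one, against 58.5%, and the median difference was 0.16 in place of -0.32, so 1 array decided its direction. No probe was called in this fit (limma, smallest adjusted p 0.0548), and 1276 were higher and 3208 lower at an unadjusted p under 0.05, or 3.82% and 9.61%. Cd14 was the only gene of the set at that level, at 0.37 (SE 0.142, limma adjusted p 0.342). Ms4a7 went from -0.76 to 0.06 and Lgals3 from -0.66 to 0.07, with standard errors of 0.837 and 0.74.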

How the data were processed

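Total RNA of BAT, labelled with Cy3 from 100 ng, was hybridised to one-colour Agilent mouse arrays. Per the labels, the authors obtained the intensity of each spot with Agilent Feature Extraction 10.7.1.1, and the processed signal intensity in the deposited scanner files is background-subtracted by that program. The deposited table holds a linear ratio for each probe and array, that is the same intensity divided by the array's 75th percentile: after scaling, every probe over 100 units lay within 0.02 log2 of a constant offset, which was 0.0017 to 0.0058. How the table was made is not given in the sources used here.

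Outlier spots and controls were left out, spots of a probe were averaged, and log2 intensity minus the array's 75th percentile over probes was taken. A probe entered a fit if Feature Extraction marked it well above background on 3 or more arrays and each group had 2 or more values. The fits used lmFit and eBayes of limma 3.58.1 (R 4.3.3), and p-values were adjusted over all probes tested by the Benjamini-Hochberg method. Of 29796 probes with a RefSeq accession, 94.1% were named through the RefSeq gene table. The genes named in the text follow a rule by role, size on TAC-1 and unadjusted p without TAC-1. The genes, lists, motifs and tests were chosen with earlier results of these data known. Fits were tested on simulated data. Alternatives were another background correction, scaling, filter, probe choice, variance model, the deposited table, the methods' t-test, a replicate block and leaving out each array. The precision is limited by the number of arrays. Some genes of the lists are not reported here.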

Additional observations from a re-analysis of the deposited data

Results flagged for a closer look

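The 4 Sham and the 4 TAC arrays of the deposited table were examined gene by gene for 1 array that stood apart, with the gap to its neighbour divided by the range of the group. This was so in 21 of 70 groups. In 19 of the 21 the array was TAC-1, on the high side, and the set had been chosen with that array's values known. The groups also share the same arrays. The count is therefore a description and cannot be set against the rate of about 1 in 20 that chance gives. The share of the range was 0.9243 for Tyrobp, 0.9301 for Fcer1g, 0.8719 for Laptm5, 0.9112 for Aif1 and 0.9243 for Adgre1. For the lysosomal and antimicrobial genes it was 0.8398 for Cd68, 0.9447 for Ctss, 0.9104 for Lyz1, 0.9172 for Lyz2, 0.9258 for Mpeg1 and 0.9021 for Cybb. It was 0.8351 for C1qa, 0.8789 for C1qb, 0.9161 for Itgb2 and 0.8385 for Fcgr1. Among lipid-associated markers it was 0.8454 for Trem2, 0.8858 for Gpnmb, 0.8329 for Cd9 and 0.9103 for Lgals3. In Sham, Aif1 stood apart on Sham-1, on the high side, with 0.9888, and Cybb on Sham-3, on the low side, with 0.9033.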

How the results depend on the processing

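Of 369 summary values under the alternatives, 342 counted as kept, and none of 238 values for 12 named genes changed sign. The margin was wide: the 7-array median of 0.16 counted as kept at 0.05 without Sham-3 and 0.35 without TAC-3. Likewise, the 1276 higher probes of that comparison counted as kept at 1906 under another scaling (quantile normalization). Without TAC-1 the median of the set in the 7-array comparison went from 0.16 to -0.32 and the genes lower at an unadjusted p under 0.05 from 0 to 9. Leaving out each array in turn gave medians of -0.32 to 0.35, 0 to 6 probes called higher and 0 to 2 called lower (6 and 2 without TAC-4), and 739 to 1290 higher and 1765 to 3371 lower probes at an unadjusted p under 0.05 (739 and 1765 without Sham-3). In the comparison without TAC-1 it gave 5 genes lower (without Sham-4 or TAC-3) to 18 (without Sham-3), and a median of -0.43 to -0.24. Same-numbered arrays had correlations of -0.025 to 9e-04 in the scanner files, which hold no pair of replicates 1. In the table the correlation was 0.27 for the replicates 1 and 0.02 to 0.06 for the others. Replicate numbers thus gave no pairing of arrays beyond the replicates 1. With the replicate number as a block, the 7-array median was -0.32 and 12 genes were lower at an unadjusted p under 0.05, since TAC-1 has no scanned partner and drops out. In the table of all 8 arrays, where it has one, the median was 0.09 with and without the block, chosen after seeing the data.

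Normexp background correction called 1 probe lower in 7 arrays, as did averaging a gene's probes. Without TAC-1 it called 30 probes higher and 222 lower, with 14 genes of the set lower at an unadjusted p under 0.05, and an intensity trend in the variance called 48 and 279. Each called 1 gene of the set, Lgals3, at -0.64 and -0.66. Other settings called no gene of the set. Normexp also lowered the median difference on TAC-1 to 1.65, the lipid-associated minus resident difference to 1.93 and the recruited minus resident difference to 1.12, and a filter on every array, which leaves out Cd163 and Cybb among others, gave 1.83 and 0.998. Leaving out Cd163 alone, chosen after seeing the data, gave 1.83 and 1.06. Of the named genes, normexp brought Cd84 from -0.70 to -0.16 and Cd163 from -0.37 to -0.16, the table with Sham-1 brought Cd163 to -0.12, and averaging a gene's probes brought Csf1r from -0.35 to -0.22 and Adgre1 to an unadjusted limma p of 0.112. The methods' t-test gave 7 genes lower without TAC-1 at its threshold and 0 after adjustment. The causes were not tested. With 3 arrays a group, small differences are not detectable, and the dim probes of Spi1, Cd53, Msr1, Cd163, Atp6v0d2 and Mmp12 limit what can be said of them.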
